A study of Mus musculus with 10 samples.

Results

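Liver cells take bile acids and other organic anions out of the blood on one side and pump them into bile on the other. The 10 transporter genes described here in single mouse hepatocytes serve this traffic, lipid export into bile or the return of conjugates to blood. They were chosen by name, as the rows slc10a1, slco1a1, slco1a4, slco1b2, abcb11, abcb4, abcc2, abcc3, abcg5 and abcg8, and all 10 were found among 14812 gene entries. The study measured RNA in 18378 hepatocytes, the cells that make up most of the liver tissue, in 10 libraries from C57BL/6 male mice aged 3 months, to follow gene expression over the day and over the liver lobule. All groups shared strain, sex and age, and no genetic change or treatment is named in the labels beyond ketamine and xylazine for anaesthesia. The mice ate regular chow freely, and their cells were freed by collagenase and cleaned on Percoll, which keeps hepatocytes and loses most other liver cells. The groups are defined by zeitgeber time (ZT), the hours counted in the light-dark cycle with ZT0 by convention at lights on. There were 3 libraries at ZT0 (A, B and C), 2 at ZT6 (A and B), 3 at ZT12 (A, B and C) and 2 at ZT18 (A and B). How many mice stand behind a library is not in the labels, so p-values measure the spread between libraries, part of which may be technical.

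A library held 1454623 to 7144803 UMIs (distinct tagged molecules), and levels are given as CPM, UMIs per 1000000 UMIs of the library. Because the kit reads only the 3' end of a transcript, CPM is not scaled to length and was not used to rank the genes against each other. The cells matched their label: the 4 hepatocyte markers together reached 28046 to 59870 CPM, while macrophage markers stayed at 0 to 3.84, lymphocyte markers at 0 to 0.609, neutrophil markers at 0 to 7.70, endothelial markers at 3.44 to 16.2 and stellate markers at 2.82 to 10.5. No UMI was seen of Clec4g, Clec4f, Csf1r, C1qa, Cd3e, Cd79a or Nkg7. The cholangiocyte markers Krt19, Epcam and Krt7 had 2, 3 and 3 UMIs in all libraries together, so that the sum of that list, 10.4 to 67.6 CPM, came from Sox9 and Slc10a2. The erythroid markers summed to 270.5 CPM in ZT18 B and to 72.2 to 107.9 in the other 9 libraries. Most of their UMIs were Alas2 (3478 in all, 67.4 to 106.9 CPM in a library). The globins Hba-a1 and Hbb-bs had 252 and 609 UMIs, at 0 to 61.2 and 0.338 to 142 CPM, and Hba-a1 was absent from 4 libraries. The part of the erythroid markers in the results was not tested. The index plate column named in the labels also differed between times: column 4 in both ZT18 libraries and in no other, column 7 in both ZT6 libraries, and columns 3, 7 and 5 in A, B and C of both ZT0 and ZT12. ZT18 and column 4 cannot be told apart.

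Bile acids return from the gut in portal blood and are taken up across the sinusoidal membrane of hepatocytes by Slc10a1 (NTCP), which couples them to sodium, and by the sodium-independent organic anion transporters Slco1a1, Slco1a4 and Slco1b2. At the canalicular membrane, ATP-driven pumps build bile: Abcb11 (BSEP) exports bile salts, Abcb4 (MDR2) moves phosphatidylcholine, Abcc2 (MRP2) exports conjugates such as bilirubin glucuronides, and Abcg5 and Abcg8 work as an obligate pair that exports cholesterol and plant sterols. Abcc3 (MRP3) sits in the basolateral membrane and sends conjugates back to the blood. Blood enters the lobule at the portal vein and leaves by the central vein, so periportal hepatocytes meet returning bile acids first and pericentral ones last.

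Abcg5 and Abcg8 are neighbours whose transcripts start back to back, and the sequence between the starts is shown because these members moved together over the day. In the RefSeq annotation of GRCm38.p6, Abcg5 starts at position 84683011 of chromosome 17 and runs to the left, and Abcg8 starts at 84683121 and runs to the right. The 109 bases between them (chr17:84683012-84683120, plus strand) read as follows, with capitals for the letters TTATCT, the minus-strand spelling of AGATAA, a sequence of the GATA type.
Abcg5-Abcg8 intergenic: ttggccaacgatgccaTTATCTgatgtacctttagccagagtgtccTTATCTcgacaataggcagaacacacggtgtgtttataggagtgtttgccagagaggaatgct
The motif starts at bases 17 and 47 counted from the left end, and it was chosen after the sequence had been read. Searched on both strands, AGATAA is present in 11.2% of 32851 RefSeq windows of 300 bases around gene starts (250 before and 50 after), and at least 2 copies are present in 0.186% of windows trimmed to 109 bases. Of the 9 members with such a window in the table, only Abcg5 and Abcg8 held it. Their windows share these 109 bases, the same sequence from which the motif was chosen, so its presence in both was fixed beforehand. None of the 9 held CACGTG (7.15% of all windows), TTATGTAA (0.938%) or CAAGGTCA (1.56%), and 5 held AGGTCA (16.3%), a string contained in CAAGGTCA: Abcb11, Abcc2, Slc10a1, Slco1a1 and Slco1b2. Such matches describe letters, not binding.

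In GENCODE M21 (GRCm38), the annotated genes lie as follows. Slco1b2 (6:141629518-141686646), Slco1a4 (6:141805440-141856199) and Slco1a1 (6:141907282-141946962) are neighbours on chromosome 6. Slc10a1 is at 12:80953183-80968705, Abcb11 at 2:69238282-69342616, Abcb4 at 5:8893717-8959231, Abcc2 at 19:43782192-43840740 and Abcc3 at 11:94343295-94392997. Abcg5 is at 17:84658234-84683011 on the minus strand and Abcg8 at 17:84676302-84700333 on the plus strand. That annotation holds an Abcg8 transcript that starts inside Abcg5, so the gene bodies overlap on opposite strands. For Abcb4, 61 of 451 windows of 50 bases over the last 500 bases of its transcript (13.5%) also occur in Abcb1a or Abcb1b, so a share of its reads may be ambiguous, while none did for the other members. Abcb1a itself was at 2.31 CPM on average.

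Over the day, the sterol pair changed most clearly. Abcg5 was at 10.3, 11.3 and 12.7 CPM in the ZT0 libraries, then 41.6 and 37.1 at ZT6, then 41.9, 34.3 and 45.2 at ZT12, then 10.7 and 14.6 at ZT18. All 5 libraries of ZT6 and ZT12 lay above all 5 of ZT0 and ZT18. Abcg8 was at 15.5, 22.4 and 31.9 CPM at ZT0, then 66.2 and 56.0 at ZT6, then 63.9, 53.5 and 81.8 at ZT12, then 14.5 and 10.5 at ZT18. Here too the groups did not overlap. The share of all genes whose libraries separate as fully was not counted, for these genes or for the members below. Its low level was 12.5 ± 2.79 CPM at ZT18 (SD, n = 2) and 23.3 ± 8.22 at ZT0 (SD, n = 3), a difference that was not tested. The ratio of Abcg5 to Abcg8 CPM in a library ran from 0.397 to 1.39, with 1.39 in ZT18 B, where Abcg8 gave only 39 UMIs.

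A 24-h cosine and sine were fitted to the library sums with edgeR's quasi-likelihood test and Benjamini-Hochberg adjustment over all 8908 genes tested, of which 5.14% were called at an adjusted p under 0.05. Amplitude is the log2 distance from mean to peak. Of the 10 members, 4 were called: Abcg5, Abcg8, Abcc2 and Abcb4, with fitted peaks between ZT 8.17 and ZT 9.11. Abcg5 had an amplitude of 1.14 (4.88-fold from trough to peak) and peaked at ZT 9.11 (adjusted p = 0.000107). Abcg8 had an amplitude of 1.27 (5.82-fold) and peaked at ZT 8.17 (adjusted p = 0.00195). The median amplitude of the 10 members was 0.53, against 0.25 over all genes tested. Sampling every 6 h places a peak only roughly.

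Abcc2, the conjugate pump, was at 74.9, 111.6 and 154 CPM at ZT0, then 220.4 and 213 at ZT6, then 241, 152 and 270.1 at ZT12, then 111.3 and 93.0 at ZT18. The ZT12 B library (152) lay just below ZT0 C (154), so the high and low times touched. Its fitted amplitude was 0.65, peaking at ZT 8.61 (edgeR adjusted p = 0.0293). Abcb4, the phospholipid mover, was at 43.3, 63.8 and 97.7 CPM at ZT0, then 143 and 132.5 at ZT6, then 85.9, 145 and 194 at ZT12, then 72.6 and 64.7 at ZT18. ZT12 A (85.9) lay below ZT0 C (97.7), and the 3 ZT12 libraries spanned more than the gap between the times. Its amplitude was 0.66, peaking at ZT 8.98 (adjusted p = 0.0478), close to the threshold. Without both ZT18 libraries both calls were lost (adjusted p = 0.173 for Abcc2 and 0.177 for Abcb4), while the amplitudes were 0.61 and 0.67. Leaving out 1 library at a time ended the call of Abcb4 in 8 of 10 cases and that of Abcc2 in 7 of 10, with adjusted p up to 0.118 and 0.0952 and amplitudes of 0.59 to 0.75 and 0.60 to 0.72. Both genes were called by DESeq2 (adjusted p = 0.00569 for Abcb4 and 0.00111 for Abcc2) and with the letter as a block (0.0139 and 0.0134). For ZT6 and ZT18 that block pairs libraries by letter only.

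The bile salt pump Abcb11 had its lowest values at ZT12. It was at 249, 362 and 256 CPM at ZT0, then 327.5 and 265 at ZT6, then 192.5, 199 and 160.1 at ZT12, then 278 and 226 at ZT18. All 3 ZT12 libraries lay below the other 7, a split read from the values and not tested by itself. The 24-h fit put its peak at ZT 0.765 with an amplitude of 0.40 that did not pass (edgeR adjusted p = 0.142). It passed with the library letter as a block (amplitude 0.40, adjusted p = 0.0458) and with the index column as a block (adjusted p = 0.0153). For ZT6 and ZT18 the letter pairs libraries by name only. No other time shares the index column of ZT18, so the column block absorbs ZT18. The time estimates of that fit rest on ZT0, ZT6 and ZT12. Without both ZT18 libraries Abcb11 did not pass (amplitude 0.52, edgeR adjusted p = 0.171). The ratio of Abcc2 to Abcb11 CPM within a library, which no library total affects, was 0.300 to 0.602 at ZT0, 0.673 to 0.802 at ZT6, 0.765 to 1.69 at ZT12 and 0.401 to 0.412 at ZT18. Abcc2 was higher pericentrally and Abcb11 periportally, and the part of cell position in this ratio was not tested.

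Among the uptake carriers no 24-h rhythm passed edgeR's test, while DESeq2 called Slc10a1 (adjusted p = 0.0301) and Slco1a4 (adjusted p = 0.0142). Slc10a1, the sodium-coupled carrier, was at 304, 402 and 397 CPM at ZT0, then 449.6 and 388 at ZT6, then 534, 546 and 537 at ZT12, then 556 and 483 at ZT18. Its 5 libraries of ZT12 and ZT18 all lay above its 5 of ZT0 and ZT6, a split read from the values and not tested by itself. The amplitude of 0.28 did not pass (edgeR adjusted p = 0.234). Slco1a1 varied little, from 357 to 497.5 CPM over all libraries, with a median of 389 and an amplitude of 0.078 (adjusted p = 0.910). Slco1a4 was sparse, with 32 to 277 UMIs a library: 11.9, 20.1 and 26.8 CPM at ZT0, then 22.8 and 38.6 at ZT6, then 109.3, 38.8 and 54.2 at ZT12, then 24.5 and 8.62 at ZT18. Its 3 ZT12 libraries were the highest of the 10, though ZT12 B stood only just above ZT6 B, and its amplitude of 0.90 did not pass (edgeR adjusted p = 0.0869; 0.0166 with no filter on level).

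Slco1b2 was uneven within times. It was at 603.5, 579 and 1484 CPM at ZT0, then 912 and 921 at ZT6, then 1655, 762 and 1595 at ZT12, then 694 and 645 at ZT18. ZT0 C, ZT12 A and ZT12 C were far above the other 7 libraries. These 3 also had the highest ratios of pericentral to periportal landmark CPM (5.07, 3.74 and 4.26, against 1.53 to 3.47 in the others), and the part of cell position in the Slco1b2 values was not tested. Its 24-h amplitude was 0.30 (edgeR adjusted p = 0.610). Abcc3, the basolateral exporter, was at 48.5, 97.6 and 108.7 CPM at ZT0, then 100.8 and 125 at ZT6, then 115, 105 and 122 at ZT12, then 103.7 and 85.4 at ZT18, with an amplitude of 0.18 (adjusted p = 0.659). ZT0 A was the lowest library, and the other 9 lay between 85.4 and 125 CPM.

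**Figure D1:**
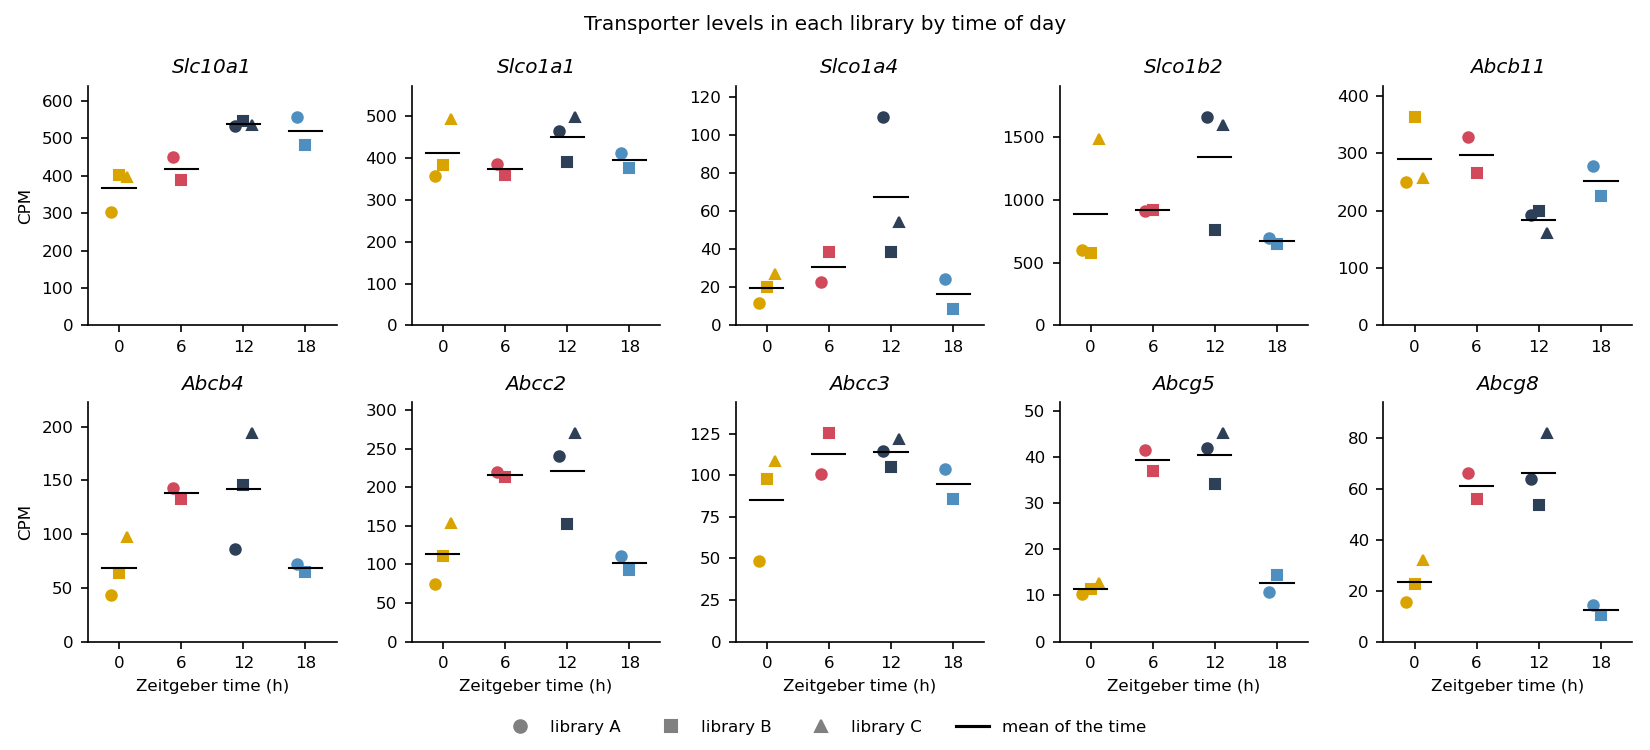
CPM of each of the 10 transporters (vertical axis, from 0, own scale per gene) against zeitgeber time in h, with 1 point per library, shaped by library letter, and a bar at the mean of each time. Abcg5 and Abcg8 are high in all ZT6 and ZT12 libraries and low in all ZT0 and ZT18 libraries, and Abcb11 is lowest at ZT12.

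At ZT12 against ZT0, Abcg5 and Abcg8 rose. Abcg5 went from 11.4 ± 1.19 to 40.5 ± 5.59 CPM (SD, n = 3 each), which is 1.67 ± 0.19 in log2 units (SE; edgeR adjusted p = 0.000227). Abcg8 went from 23.3 ± 8.22 to 66.4 ± 14.3 CPM, which is 1.37 ± 0.23 in log2 units (adjusted p = 0.00377). Those 2 of 10 members compare with 3.44% of all genes called, 1.74% higher and 1.7% lower at ZT12. The median log2 difference of the members was 0.64, against -0.00075 over all genes tested. Without TMM scaling the median of all genes moved to 0.13, with 202 genes higher and 101 lower in place of 155 and 151.

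The letters A, B and C tie ZT0 libraries to ZT12 libraries, since the same letter carries the same index column at both times and same-letter libraries deviated together. With the letter as a block, 5.66% of genes and 6 of 10 members were called. Besides Abcg5 and Abcg8, those were Slco1a4 (log2 difference 1.55 ± 0.41, SE, edgeR adjusted p = 0.0424), Abcb4 (0.93 ± 0.19, adjusted p = 0.0111), Abcc2 (0.83 ± 0.21, adjusted p = 0.0319) and Abcb11 (-0.79 ± 0.18, adjusted p = 0.0207). Without the block the same 4 genes had adjusted p of 0.0517, 0.0891, 0.0889 and 0.0704. In the blocked fit RNA of the bile salt pump Abcb11 was lower at ZT12, and that of Slco1a4, Abcb4 and Abcc2 was higher, while the other organic anion carriers Slco1a1 and Slco1b2 were not called. Slc10a1 differed by 0.42 ± 0.19 without the block (edgeR adjusted p = 0.310), Slco1b2 by 0.47 ± 0.34, Abcc3 by 0.30 ± 0.24 and Slco1a1 by -0.0046 ± 0.19 (SE). None of those 4 passed in either fit.

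At ZT18 against ZT6, Abcg5 and Abcg8 fell. Abcg5 went from 39.4 ± 3.22 to 12.6 ± 2.73 CPM (SD, n = 2 each), which is -1.56 ± 0.24 in log2 units (SE; edgeR adjusted p = 0.00295). Abcg8 went from 61.1 ± 7.22 to 12.5 ± 2.79 CPM, which is -2.22 ± 0.30 in log2 units (adjusted p = 0.00109). The call of Abcg5 was lost without ZT18 A (adjusted p = 0.0703), where 1 library is left at ZT18 and is assumed to vary like the other times. Of all genes, 3.79% were called, 2.35% higher and 1.45% lower at ZT18, and the members' median log2 difference was -0.60 against -0.0090. Abcc2 differed by -1.01 ± 0.30 (adjusted p = 0.0767) and Abcb4 by -0.93 ± 0.33 (adjusted p = 0.142), and neither passed. Abcc2 was called by DESeq2 (adjusted p = 0.0401) and by edgeR with no filter on level (adjusted p = 0.0392). Among the uptake carriers, Slc10a1 differed by 0.39 ± 0.23 and Slco1a4 by -0.82 ± 0.54, with no call.

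**Figure D2:**
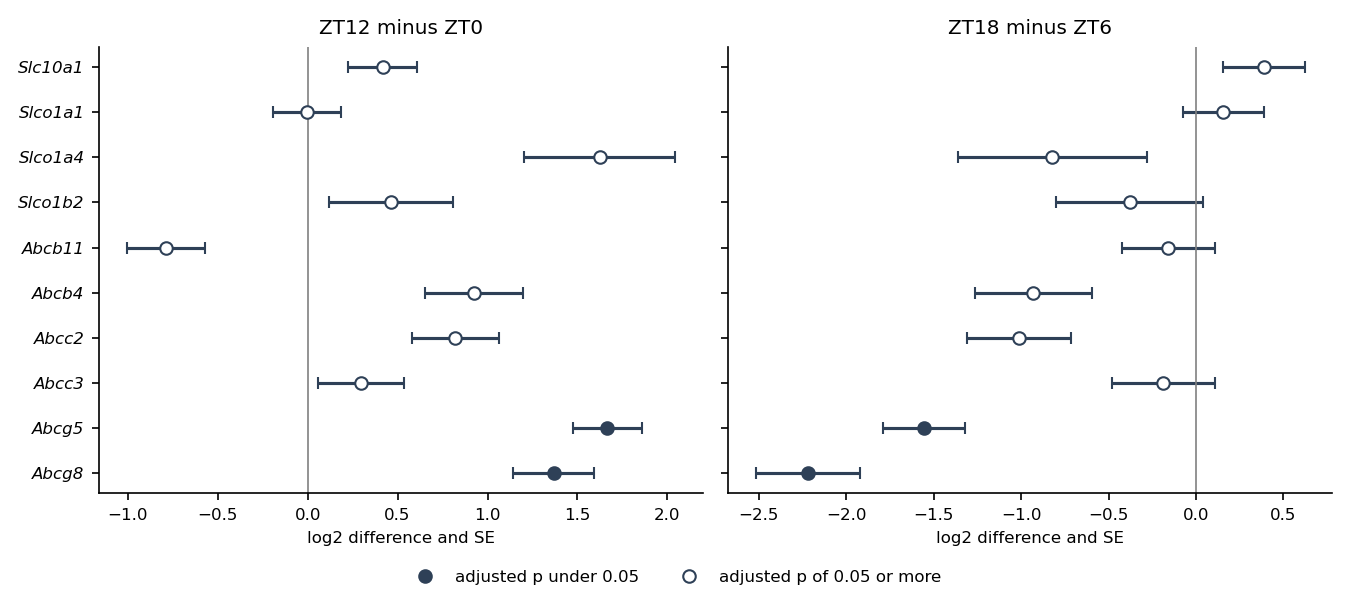
Log2 difference and SE (horizontal axis) of each transporter at ZT12 minus ZT0 (left) and ZT18 minus ZT6 (right), from edgeR, with filled points where the adjusted p was under 0.05. Abcg5 and Abcg8 are filled on both sides, with opposite signs, and Abcb11 is the member farthest below 0 on the left.

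Across the lobule, most members were higher near the central vein. Within a library, 16 landmark genes put the cells in order, none of them a member, and the order was split into 3 equal zones whose sums were compared with the library as a block. Of the 10 members, 8 differed between the outer zones, 7 of them higher pericentrally and 1, Abcb11, higher periportally. Of all 8910 genes tested, 27.2% were called, 14.2% higher pericentrally and 13.0% periportally. The members' median log2 difference, periportal minus pericentral, was -0.51 against -0.0085 over all genes. Without TMM scaling the split of all calls was 1997 pericentral to 758 periportal and the median of all genes was -0.11, while the 8 members kept their calls and directions.

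Slco1b2 had the steepest slope, from 2161 ± 906 CPM in the most pericentral of 8 layers to 344 ± 59.2 in the most periportal (SD, n = 10), 6.29-fold. It was higher pericentrally in 10 of 10 libraries, with a zone difference of -1.99 ± 0.08 log2 units (SE; edgeR adjusted p = 4.99e-25). Slco1a1, of the same gene cluster, went from 560 ± 75.3 to 279 ± 42.2 CPM over the layers. It also ran the same way in 10 of 10 libraries (-0.63 ± 0.06, edgeR adjusted p = 6.53e-13). The third gene of that cluster, Slco1a4, lies between Slco1b2 and Slco1a1 and had no slope that passed (0.17 ± 0.12, edgeR adjusted p = 0.311). It was at 46.8 ± 38.2 CPM in layer 1, 26.6 ± 18.8 in layer 4 and 39.0 ± 38.1 in layer 8, an SD nearly as large as the mean.

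Slc10a1, the main sodium-coupled carrier, was nearly flat. Its layer means ran from 429 ± 104 CPM in layer 1 through 496 ± 120 in layer 3 to 445 ± 76.8 in layer 8 (SD, n = 10). The zone difference of 0.078 ± 0.051 (SE) did not pass (edgeR adjusted p = 0.289), and its sign turned without TMM scaling (-0.020). The ratio of Slco1b2 to Slc10a1 CPM in whole libraries was 1.25 to 3.74.

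Abcc3 went from 169 ± 38.2 CPM in layer 1 to 72.0 ± 21.3 in layer 8 (SD, n = 10) and was higher pericentrally in 10 of 10 libraries (-0.89 ± 0.08 log2 units, SE; edgeR adjusted p = 3.15e-13). Most of its drop lay between layers 1 and 5 (79.7 ± 23.5), and from there the profile was level.

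Of the 5 canalicular pumps, 4 were higher pericentrally. Abcc2 went from 210.4 ± 74.7 to 122 ± 59.3 CPM between layers 1 and 8 (zone difference -0.54 ± 0.07, SE; edgeR adjusted p = 4.74e-09). Abcg8 went from 54.5 ± 32.8 to 27.6 ± 20.4 CPM (-0.73 ± 0.10, adjusted p = 9.72e-08), and both genes were higher pericentrally in 10 of 10 libraries. Abcb4 went from 144 ± 68.2 CPM in layer 1 to 81.2 ± 38.2 in layer 6 and 92.6 ± 42.8 in layer 8 (-0.41 ± 0.08, adjusted p = 6.34e-05, 9 of 10 libraries). Abcg5 went from 34.4 ± 22.1 to 23.3 ± 16.5 CPM (-0.49 ± 0.14, adjusted p = 0.00462, 9 of 10 libraries). In cells with at least 3000 UMIs the calls of Abcb4 and Abcg5 were lost (adjusted p = 0.128 and 0.355), with log2 differences of -0.25 and -0.37. The SDs over all libraries include the daily change.

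Abcb11 ran the other way, from 207 ± 37.3 CPM in layer 1 to 283 ± 78.7 in layer 8 (SD, n = 10), with a zone difference of 0.40 ± 0.06 (SE; edgeR adjusted p = 1.68e-06). It was higher periportally in 8 of 10 libraries, and the exceptions were ZT12 A and ZT12 C. By time, the periportal minus pericentral difference in log2(CPM + 1) was 0.47 ± 0.03 at ZT0 (SD, n = 3). It was 0.37 ± 0.08 at ZT6 (n = 2), then -0.09 ± 0.28 at ZT12 (n = 3) and 0.32 ± 0.21 at ZT18 (n = 2). Whether the rhythm of Abcb11 differs between zones did not pass the test given further on.

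**Figure D3:**
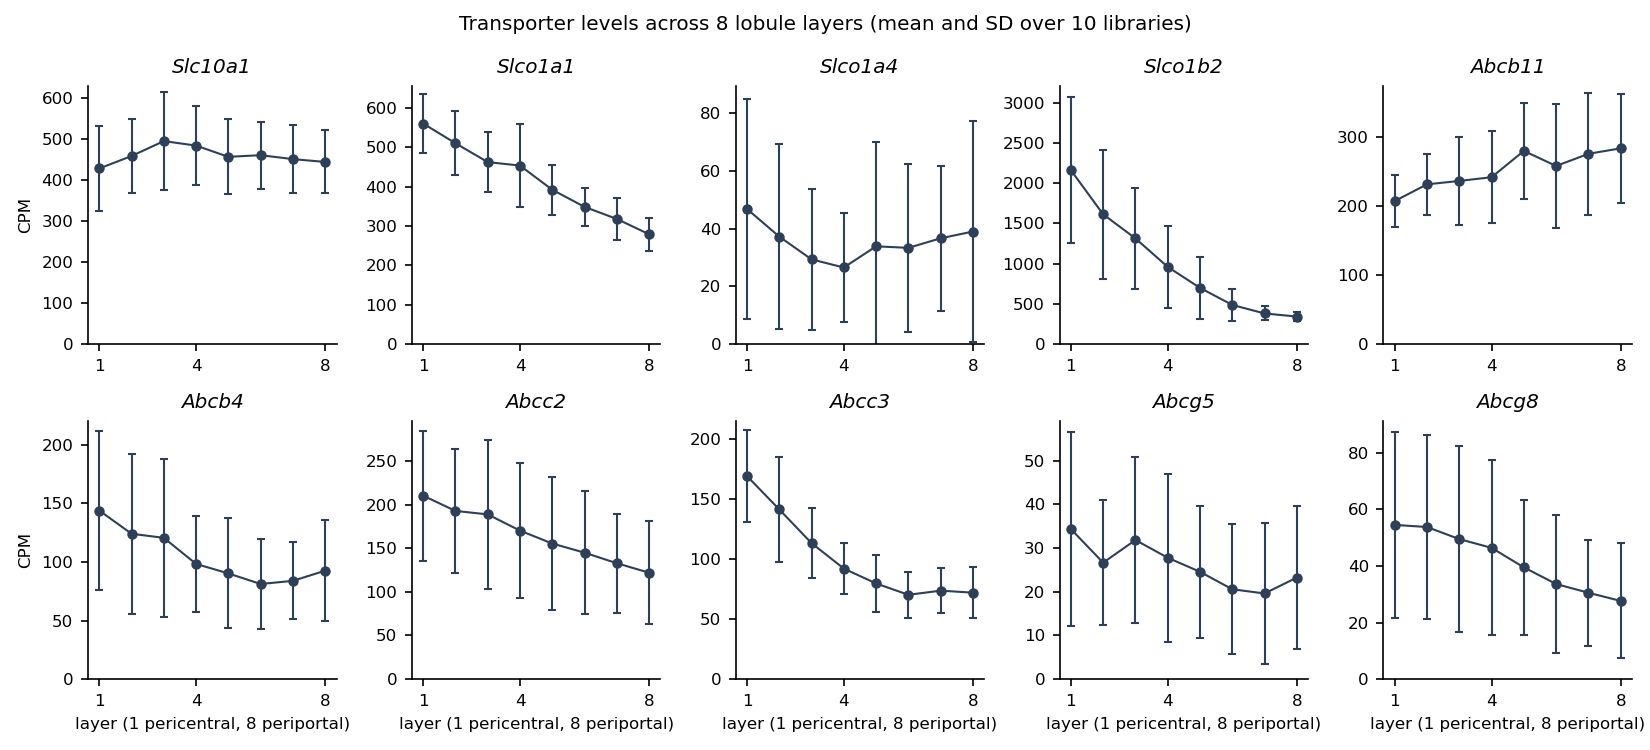
CPM of each transporter (vertical axis, from 0, own scale per gene) over 8 equal layers of the landmark order, from 1 (pericentral) to 8 (periportal), as the mean and SD over 10 libraries. Slco1b2 falls 6.29-fold, Abcb11 is higher in layer 8 than in layer 1, and Slc10a1 is nearly level.

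**Figure D4:**
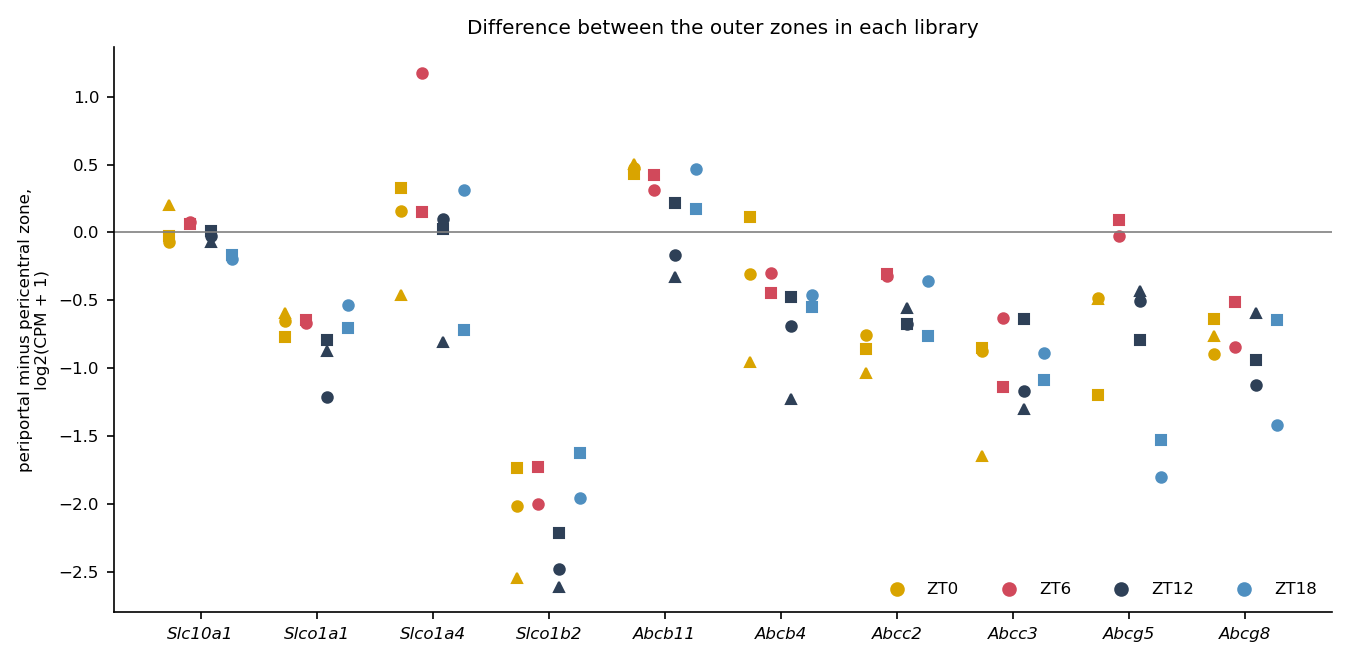
Difference between the periportal and the pericentral zone in each library (vertical axis, log2(CPM + 1)), for the 10 transporters, coloured by time, with circles, squares and triangles for libraries A, B and C. Slco1b2, Slco1a1, Abcc2, Abcc3 and Abcg8 lie below 0 in all 10 libraries, and the ZT18 points of Abcg5 are the lowest of that gene.

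A level that peaks or dips between the veins was looked for by setting the midlobular zone against the mean of both outer zones. No member passed (edgeR quasi-likelihood test), against 0.707% of all genes, and DESeq2 called no member either. At an unadjusted p under 0.05 in edgeR there were 4 members, and 735 of all 8910 genes tested. The lowest adjusted p were those of Slco1a4 (-0.34 ± 0.11, SE, adjusted p = 0.213) and Abcc3 (-0.21 ± 0.07, adjusted p = 0.234), both lower midlobularly. Abcc3 passed without ZT0 C (edgeR adjusted p = 0.0340), where 103 genes were called in all in place of 63. In the other 9 fits with 1 library left out it did not pass.

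A difference in daily rhythm between the outer zones was tested next. No member passed (edgeR), against 0.0448% of all genes, with DESeq2 calling none. At an unadjusted p under 0.05 in edgeR there were 2 members, and 550 of all 8923 genes tested. The smallest p belonged to Abcg5 (unadjusted p = 0.00050, adjusted p = 0.248), whose difference in rhythm had an amplitude of 0.85. At ZT6, Abcg5 was at 47.2 and 34.5 CPM pericentrally and 46.4 and 36.9 periportally. At ZT18 it was at 17.3 and 23.95 pericentrally and 4.26 and 7.63 periportally, where 15 UMIs in all carried the periportal values. The outer zones were level at ZT6 and apart in both libraries at ZT18. Without ZT0 C this test called Abcg5 (edgeR adjusted p = 0.0471), and it then called 42 genes in all in place of 4. In the other 9 fits with 1 library left out, Abcg5 was not called. Abcg8 had a negative mean difference at all 4 times, from -0.68 ± 0.24 at ZT6 to -1.03 ± 0.55 at ZT18 (log2(CPM + 1), SD, n = 2 each), and an adjusted p of 0.957. Abcb11 had an amplitude of 0.25 for the difference in rhythm (adjusted p = 0.728).

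**Figure D5:**
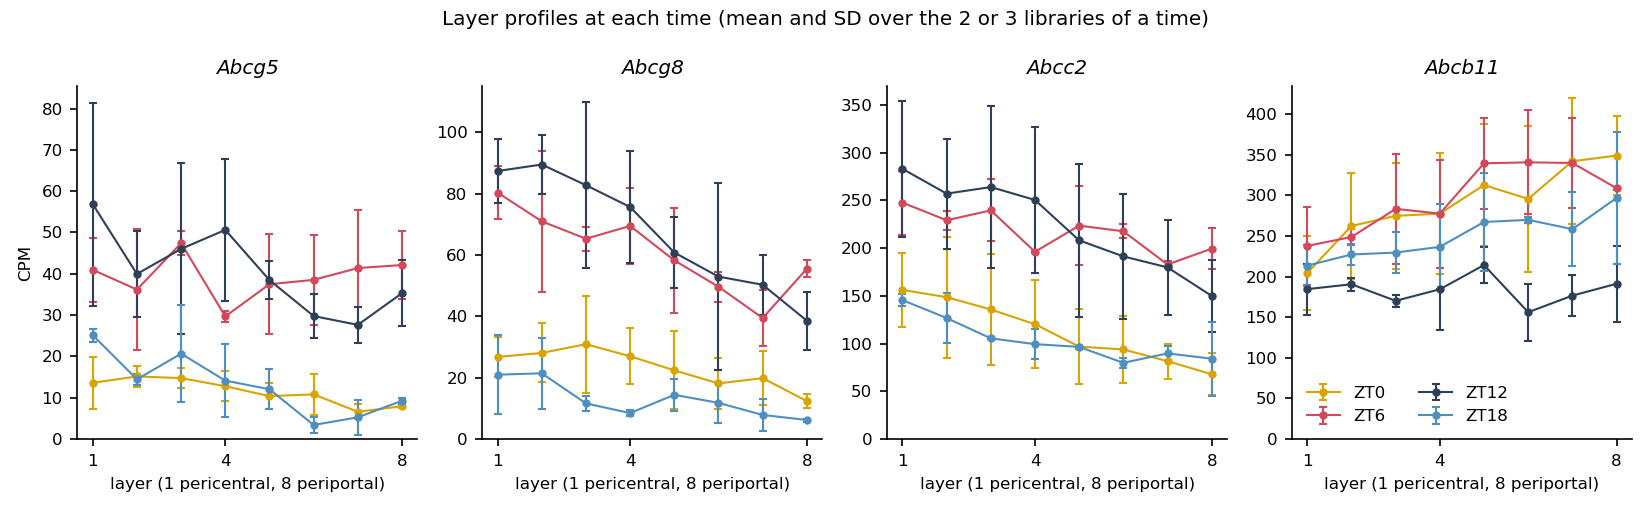
CPM of Abcg5, Abcg8, Abcc2 and Abcb11 (vertical axis, from 0) over 8 layers from pericentral to periportal, with 1 line per time and the mean and SD over the 2 or 3 libraries of that time. The ZT6 and ZT12 lines of Abcg5 and Abcg8 run above the ZT0 and ZT18 lines in every layer, and the ZT12 line of Abcb11 is the lowest in every layer.

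Other transporters of hepatocytes were looked at in the same tests. Of 18 listed genes, 17 were in the files and 14 passed the filter on level. None was called for the 24-h rhythm (5.14% of all genes) or for ZT18 against ZT6 (3.79%). At an unadjusted p under 0.05 (edgeR) there were 0 in each, against 1816 and 1744 of all 8908 genes. None was called for ZT12 against ZT0 (3.44% of all genes), and DESeq2 called none in these 3 tests. In edgeR, 1 was at an unadjusted p under 0.05 for ZT12 against ZT0, against 1385 of all 8908 genes. Between the outer zones 9 of 14 were called, against 27.2% of all genes, 3 periportal and 6 pericentral. Slc22a7 (OAT2, an organic anion carrier) was the most periportal (2.11 ± 0.16 log2 units, SE, edgeR adjusted p = 2.6e-15), followed by the copper exporter Atp7b (0.41 ± 0.11) and the bile acid CoA ligase and fatty acid transporter Slc27a5 (0.27 ± 0.07). The aromatic amino acid carrier Slc16a10 (-1.48 ± 0.12) and the efflux pump Abcg2 (-0.79 ± 0.09) were among the pericentral genes.

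Of 16 regulators of bile acid and sterol transport, all tested, 1 was called for the rhythm: Esrra, an orphan nuclear receptor, with an amplitude of 0.56 (edgeR adjusted p = 0.0126), a count near the 5.14% of all genes. Esrra was also the single regulator called at ZT12 against ZT0, where 3.44% of all genes were called. It went from 14.4 ± 1.42 to 29.9 ± 2.77 CPM (SD, n = 3 each), a log2 difference of 0.93 ± 0.17 (SE). At ZT18 against ZT6, 2 of 16 were called, both lower at ZT18, against 3.79% of all genes called and 1.45% lower. Nr0b2 (SHP), a corepressor induced by bile acids through FXR, fell from 52.6 ± 21.3 to 12.6 ± 0.889 CPM (-1.98 ± 0.42, edgeR adjusted p = 0.0208). Nr1i3 (CAR), a xenobiotic receptor, fell from 88.7 ± 10.6 to 34.6 ± 2.13 CPM (-1.28 ± 0.31, adjusted p = 0.0350). Between zones 6 of 16 were called, against 27.2% of all genes. Ahr (-2.40 ± 0.13), Nr1i3 (-1.82 ± 0.10) and Ppara (-0.44 ± 0.11) were the most pericentral, and Esrra (1.05 ± 0.12) and Hnf4a (0.17 ± 0.05) were periportal. The bile acid receptor Nr1h4 (FXR) was at 51.6 ± 2.82 CPM at ZT0, then 63.8 ± 1.09 at ZT6, then 63.4 ± 5.72 at ZT12 and 51.6 ± 17.8 at ZT18, with no call in any test.

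Of 12 genes for the scaffold and traffic of the canalicular membrane, 10 were tested. Cgn (cingulin, a tight junction protein) was the single one called over the day, with an amplitude of 0.88 (edgeR adjusted p = 0.0037, 5.14% of all genes called). It was lower at ZT12 than at ZT0 (-1.15 ± 0.23 log2 units, SE, 3.44% of all genes called). It was higher at ZT18 than at ZT6 (1.32 ± 0.27, 3.79% of all genes called). Between zones 5 of 10 were called, against 27.2% of all genes: Cgn (0.32 ± 0.12) and Ceacam1 (0.29 ± 0.09) periportally, and the scaffold Pdzk1 (-0.52 ± 0.10), Rdx (-0.32 ± 0.06) and Slc9a3r1 (-0.17 ± 0.06) pericentrally. Rdx encodes radixin, which links canalicular membrane proteins such as Abcc2 to actin.

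Members were also compared with each other over 12 points, the mean log2(CPM + 1) of 3 zones at 4 times, as a description, since the points share libraries and depth. Abcg8 and Abcc2 were the most alike (Pearson r = 0.954), with Abcg5 and Abcc2 at 0.952, Abcb4 and Abcc2 at 0.952, and Abcg5 and Abcg8 at 0.924. Slco1a1 and Slco1b2 stood at 0.939 and Slco1b2 and Abcc3 at 0.914. Abcb11 had a negative r with each of the other 9 members, from -0.693 with Slc10a1 to -0.365 with Abcg8. Among 4331 other genes whose mean reached 20 CPM, the most like profiles were those of Gpcpd1 for both Abcg5 (0.963) and Abcb4 (0.967), Rfc2 for Abcc2 (0.985), Smim19 for Abcg8 (0.977), Hsd17b2 for Abcb11 (0.956), Ptp4a2 for Abcc3 (0.967), Elovl6 for Slc10a1 (0.973), Mfn1 for Slco1a4 (0.980), Nfyb for Slco1a1 (0.968) and Sult1b1 for Slco1b2 (0.975).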

How the data were processed

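The authors deposited UMI counts per gene and single cell, and per the labels' protocols the libraries came from version 2 of the 10x 3' single-cell kit. The submitters' processing notes name Cell Ranger and the builds mm10 and hg19, without roles; the annotation, cell filter and doublet treatment are not given in the sources used here. Cells carry running numbers, so barcodes shared between libraries could not be counted, and no doublet caller was run. All 18378 cells passed a minimum of 1000 UMIs and a mitochondrial share of up to 35%. Libraries of a time differed beyond sampling noise (chi-square per degree of freedom 5.763 to 68.805).

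Counts were summed per library, or per library and zone, and tested with edgeR 4.0.16 (R 4.3.3, glmQLFit and glmQLFTest, TMM) for genes whose mean reached 3 CPM; all 10 members passed. Adjusted p-values are Benjamini-Hochberg over all genes tested, at a threshold of 0.05. The zone order was a difference of mean z-scores, 8 periportal landmarks (Ftcd, Pigr, Hal, Asl, Ass1, Cyp2f2, Hsd17b13, Ctsc) less 8 pericentral ones (Rgn, Cyp1a2, Oat, Cyp2e1, Lect2, Gulo, Aldh1a1, Mgst1), with split-landmark r of 0.6829 to 0.8465. Plots and per-library differences use log2(CPM + 1), which understates changes of low genes. Scripts were tested on simulated counts. Alternatives were library size alone, DESeq2 1.42.0, other filters, other landmarks, deeper cells, left-out libraries, and blocks.

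Same-letter libraries of ZT0 and ZT12 share an index column, and their deviations from the time means correlated with r of 0.239 to 0.4849; those of ZT6 and ZT18 did not (0.0326).

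The members and gene lists were chosen with earlier results of these data known. All members are named, and from each list the called genes, at most 3 per direction and test, by size, except that 1 listed transporter is not reported here; Nr1h4 and Abcb1a were added after their values were seen. For likeness, the gene with the highest r is given. Promoter letters are from RefSeq (GRCm38.p6), and Abcc3 had no window in the table.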

Additional observations from a re-analysis of the deposited data

Results flagged for a closer look

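Slc10a1, the sodium-coupled bile acid carrier, had a difference between the outer zones (periportal minus pericentral, log2(CPM + 1)) of opposite sign at 2 times. At ZT6 both libraries were slightly higher periportally, with a mean of 0.07235, and at ZT18 both were higher pericentrally, with a mean of -0.1789. The difference between those times was not tested by itself, and the test for a rhythm that differs between zones did not pass for this gene (edgeR adjusted p = 0.914). With 2 libraries at each of these times, the signs rest on 4 libraries. In libraries A, B and C the difference was -0.072, -0.028 and 0.199 at ZT0 and -0.029, 0.010 and -0.068 at ZT12, with mixed signs. These values are not TMM-scaled, and the zone difference over all libraries was 0.078 with TMM scaling and -0.020 without.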

How the results depend on the processing

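The zone calls were the steadiest: 6 to 8 members were called under all 21 alternatives run. Abcg5 and Abcg8 kept their rhythm call and their ZT12 against ZT0 call under all 19 alternatives. For other counts of members the cause of a shift was not tested, and the counts of all genes called moved as well. At ZT12 against ZT0 the all-gene count went from 306 to 367 under DESeq2 and to 469 of 14278 with no filter on level. It was 504 there with the replicate block and 767 with the index column as a block. At ZT18 against ZT6 it went from 338 to 373 under DESeq2 and to 595 of 14278 with no filter. Midlobularly it went from 63 to 134 with zones made of 3 of 5 equal parts. For the rhythm, 4 members became 2 without both ZT18 libraries and 2 to 4 with 1 library left out. DESeq2 gave 6 for the rhythm, with Slc10a1 and Slco1a4 (792 of all genes against 458). With the replicate block, which pairs ZT6 and ZT18 libraries by letter only, that count was 5, with Abcb11 (749 of all genes against 458). For ZT12 against ZT0, 2 members became 6 under DESeq2, 5 with no filter on level, 6 with the replicate block, 6 with the index column as a block and 2 to 5 with 1 library left out. For ZT18 against ZT6, 2 became 3, with Abcc2, under DESeq2 and with no filter on level, 4 with the replicate block, which pairs libraries by letter only (730 of all genes against 338), and 1 to 3 with 1 library left out. The midlobular count went from 0 to 1 (Abcc3) with zones made of 3 of 5 equal parts and was 0 to 1 with 1 library left out, as was the zone-dependent rhythm.

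Signs turned only for differences that were not called. At ZT12 against ZT0, Slco1a1 gave 0.1344 with library size alone, 0.0477 without the deepest 5% of cells, and -0.05528 to 0.08769 with 1 library left out. At ZT18 against ZT6, Abcc3 gave -0.3854 to 0.03219 with 1 library left out. Between zones, Slc10a1 gave -0.0197 with library size alone and -0.01356 in cells with at least 3000 UMIs. Midlobularly, Abcg5 gave 0.003171 under DESeq2, 0.00833 without the deepest 5% of cells, 0.02142 with even landmarks, 0.1061 in cells with at least 3000 UMIs and -0.07903 to 0.1167 with 1 library left out. There, Abcc2 gave -0.02733 with odd landmarks and -0.004556 to 0.04817 with 1 library left out, Slco1b2 gave 0.02756 without both ZT18 libraries and -0.08552 to 0.0005492 with 1 library left out, and Slc10a1 gave -0.02039 in cells with at least 3000 UMIs. For Abcg8 the zone-dependent rhythm had its peak shifted by over 6 h in cells with at least 3000 UMIs (amplitude 0.2717).

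Over the alternatives, the counts of all genes called ran from 228 to 792 for the rhythm, 214 to 767 for ZT12 against ZT0, 50 to 730 for ZT18 against ZT6, 1295 to 2755 between zones, 20 to 137 midlobularly and 0 to 46 for the zone-dependent rhythm. Depth limits Slco1a4, Abcg5 and Abcg8 most, with as few as 32, 34 and 39 UMIs in a library.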

Other observations

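Slc10a2, the apical sodium-dependent bile acid transporter, known from ileum and bile ducts, was listed among the cholangiocyte markers and was singled out after its values were seen. It had 1171 UMIs over the 10 libraries, while of the other cholangiocyte markers in the files Sox9 had 565 (0.773 to 32.3 CPM in a library) and Krt19, Epcam and Krt7 had 2, 3 and 3. Slc10a2 was at 31.4, 20.5 and 37.8 CPM in the ZT0 libraries, 11.4 and 9.66 at ZT6, 41.2, 15.0 and 36.6 at ZT12, and 50.3 and 39.9 at ZT18. Both ZT6 libraries were the lowest of the 10. The values also split by index column: the column 7 libraries (ZT0 B, ZT6 A, ZT6 B and ZT12 B) were at 9.66 to 20.5 CPM. The libraries of the other columns were at 31.4 to 50.3 CPM. By edgeR, Slc10a2 was called for the 24-h rhythm (amplitude 1.05, peak at ZT 18.4, adjusted p = 0.0371) and was higher at ZT18 than at ZT6 (log2 difference 2.16 ± 0.41, SE, adjusted p = 0.0136). Its difference between the outer zones was 0.30 ± 0.12 and did not pass (Slc10a2, edgeR adjusted p = 0.0507). The part of the index column in these Slc10a2 values and calls, be it column 7 or ZT18's own column, was not tested.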
